A study of Homo sapiens with 9 samples.

Results

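Many human genes are accompanied by a second transcript made from the other DNA strand, and the gene symbol of such a transcript records its neighbour: a symbol ending in -AS marks a transcript antisense to the gene named before the hyphen, and one ending in -DT marks a divergent transcript that starts close to that gene and runs away from it. In H9-derived definitive endoderm that was homozygous or heterozygous mutant for CHD7 or wild type, 377 of the 26240 genes in the deposited count table carried such a symbol and had a mean level of at least 1 CPM (reads of a gene scaled to the TMM-adjusted library total) over the 9 libraries. Of these, 265 end in -AS, with or without a digit, and 112 end in -DT. They were taken from 1394 rows with such a symbol at any level, without symbols that start with LINC and without 4 rows left out by name. The members were chosen on their mean level over all libraries, and the lowest 3 inside were SLC38A4-AS1 at 1.002 CPM, DENND3-AS1 at 1.0034 CPM and ZNF236-DT at 1.0047 CPM, while CTNS-AS1 at 0.99942 CPM, UBE2R2-AS1 at 0.99935 CPM and SUGT1-DT at 0.99884 CPM lay just outside. A partner, the gene named in the symbol, had its own row for 366 genes, and 346 of these had enough counts to be tested, which gave 350 pairs of a transcript and a tested partner.

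Antisense and divergent transcripts are mostly non-coding. At CpG-rich promoters RNA polymerase often starts in both directions, and the upstream product is usually short-lived because early termination and the nuclear RNA exosome remove it. Some antisense transcripts act on their neighbour, by transcription through its promoter, by pairing with its RNA or through chromatin, while others change with it only because both lie in the same open chromatin. CHD7 is an ATP-dependent chromatin remodeller that binds enhancers and promoters marked by histone H3 lysine methylation.

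The study asked how loss of CHD7 alters the formation of definitive endoderm, the germ layer that gives rise to the gut, liver, pancreas and lungs. RNA was sequenced from definitive endoderm that had been derived from H9, an established human embryonic stem cell line, with 3 libraries each of homozygous (CHD7-/-), heterozygous (CHD7+/-) and wild-type (CHD7+/+) cells. The mutations are CRISPR/Cas9 deletions. The labels give neither the deleted interval, nor the number of clones behind each genotype, nor whether the 3 libraries of a genotype came from separate cultures, so p-values measure how far these libraries spread, possibly for technical reasons alone, and a clonal difference cannot be told apart from the genotype.

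Library totals ran from 11854173 to 37519729 counts, and homozygous replicate 1 was the shallowest. CHD7 had 42.9 to 56.0 CPM in homozygous, 110.3 to 130.4 CPM in heterozygous and 189.02 to 194.7 CPM in wild-type libraries, and its log2 fold change in homozygous against wild type was -1.91 (SE 0.11, edgeR quasi-likelihood test, adjusted p = 5.25e-07). All 11 definitive endoderm markers were tested, and their summed level was 7328 to 8523 CPM in homozygous, 9055 to 10158 CPM in heterozygous and 10765 to 11564 CPM in wild-type libraries. CER1, a secreted Nodal and BMP antagonist, made up most of that difference, with a mean of 4625 CPM in homozygous, 6119 CPM in heterozygous and 7239 CPM in wild-type libraries, and without it the sums were 3350 to 3541, 3380 to 3595 and 3749 to 3865 CPM. CER1, FOXA2 and HHEX were called down in homozygous against wild type, and the other 8 markers were not called. Summed pluripotency markers, mostly L1TD1 and DNMT3B, were 1229 to 1435, 1591 to 1641 and 1298 to 1397 CPM in the same order. POU5F1 had 122, 114 and 33.4 CPM in homozygous replicates 1, 2 and 3. It averaged 159 CPM in heterozygous and 69.5 CPM in wild-type libraries. SOX2 averaged 4.39, 13.5 and 4.84 CPM in homozygous, heterozygous and wild-type libraries, with 0.847 CPM in homozygous replicate 3. NANOG averaged 4.22, 13.2 and 10.4 CPM in the same order. No pluripotency marker was called in homozygous against wild type. Trophoblast and amnion markers, 6 of 7 listed, summed to 23.5 to 31.1, 13.4 to 13.9 and 9.97 to 12.7 CPM. The sums of visceral and primitive endoderm markers, 4 of 5 listed, were nearly all HNF4A and APOA1. They were 43.0 to 48.3 CPM in homozygous, 25.3 to 29.1 CPM in heterozygous and 27.6 to 31.4 CPM in wild-type libraries. TFAP2C, GATA3 and HNF4A were called up in homozygous against wild type, with log2 fold changes of 1.23, 1.36 and 0.77. Mesoderm markers, 6 of 8 listed, summed to 4.93 to 9.56, 7.22 to 10.4 and 9.43 to 13.0 CPM in the same order. Neuroectoderm markers, nearly all OTX2, summed to 583 to 625, 612 to 681 and 652 to 706 CPM. No mesoderm or neuroectoderm marker was called in any comparison. In homozygous against heterozygous, 1 definitive endoderm and 1 pluripotency marker were called down. In that comparison 2 trophoblast and amnion markers and 1 visceral and primitive endoderm marker were called up. No listed marker with a row was at 0 in all libraries, and the part of these cell type markers in the changes described here was not tested. In bulk RNA, fewer cells of a type and less RNA per cell cannot be told apart.

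The pairs took several arrangements in GENCODE release 29 (GRCh38). The 5′ ends of transcript and partner overlapped in 160 cases, and in 94 the genes lay back to back on opposite strands with starts at most 5000 bases apart. Another 47 transcripts lay inside the partner on the other strand, 45 overlapped its 3′ end and 18 spanned it. The median distance between starts was 142 bases in the back-to-back pairs and 625 bases where 5′ ends overlapped. Exons of transcript and partner shared no base in 141 pairs. In the remaining pairs with coordinates the exons overlap, and no source used here gives the strand setting of the counting, so reads in the shared stretch cannot be assigned to 1 strand with certainty.

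**Figure D1:**
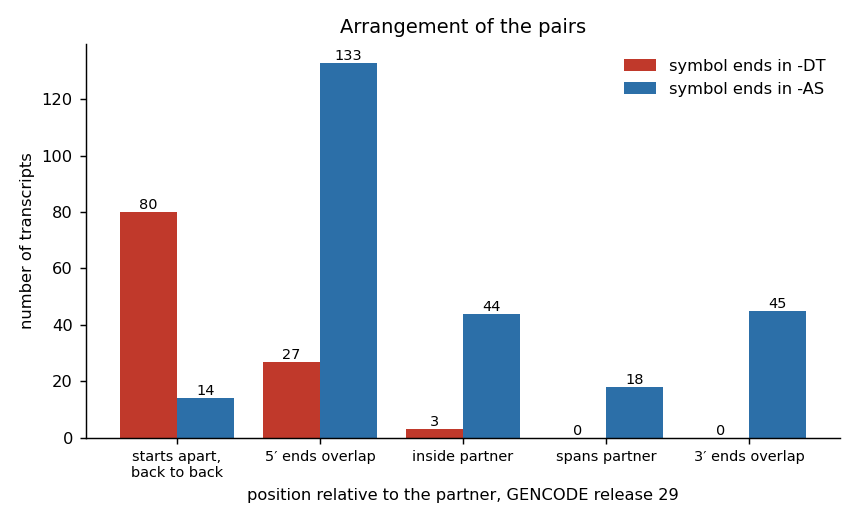
Number of transcripts (vertical axis) in each of 5 arrangements relative to the partner (horizontal axis), for symbols ending in -DT (red) and -AS with or without a digit (blue). Back-to-back starts held 80 of the -DT and 14 of the -AS transcripts, while overlapping 5′ ends held 27 and 133.

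These transcripts were low in level. The median of their mean levels was 2.76 CPM, 128 lay between 1 and 2 CPM, 61 reached 10 CPM and 5 reached 50 CPM. Per kilobase of annotated exon in the wild-type libraries, the median log2 ratio of transcript to partner was -2.30, and the transcript was the lower of the pair in 286 of 348 pairs with lengths for both.

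Promoter sequence was available for 298 of the 377 transcripts as windows of 300 bases, from 250 before to 50 after the transcript start, taken from RefSeq on GRCh38.p14. The windows were rich in CpG: the median ratio of observed to expected CpG was 0.848, against 0.58 over all 27305 promoter windows, and the median was 0.908 for the -DT and 0.808 for the -AS transcripts. The GC box GGGCGG, read on both strands, stood in 68.5% of the windows against 44.6% of all promoters, and the ETS core CCGGAA in 31.2% against 17.6%. The TATA box TATAAA was the opposite, in 5.03% against 11.95%, while the CCAAT box stood in 30.2% against 35.7%. The windows of 319 partners had similar values, with a median CpG ratio of 0.862. Among them the GC box stood in 67.1%, the ETS core in 30.4%, the TATA box in 7.21% and the CCAAT box in 32.6%. A letter match is a description and not a binding site.

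The promoters of 2 pairs are shown because these pairs moved in different ways. In the first, AGA-DT rose in both mutants with no called change of AGA. In the second, CDK6-AS1 and CDK6 both fell in homozygous cells. ODC1-DT and MAP3K4-AS1 follow, as transcripts that changed in opposite directions beside a partner with no called change. Capitals mark the CCAAT box (CCAAT), the GC box (GGGCGG), the TATA box (TATAAA) and the MYC E-box (CACGTG) on either strand, each sequence runs 5′ to 3′ on the strand of its own gene, and no 2 marked matches overlap. The RefSeq start of AGA-DT at position 177442514 lies 77 bases from that of AGA, so the windows share 176 bases, whereas GENCODE release 29 starts AGA-DT at 177444979. The RefSeq starts of CDK6-AS1 and CDK6 are 90 bases apart, and their windows share 9 bases.
AGA-DT, chr4:177442264-177442563, plus strand: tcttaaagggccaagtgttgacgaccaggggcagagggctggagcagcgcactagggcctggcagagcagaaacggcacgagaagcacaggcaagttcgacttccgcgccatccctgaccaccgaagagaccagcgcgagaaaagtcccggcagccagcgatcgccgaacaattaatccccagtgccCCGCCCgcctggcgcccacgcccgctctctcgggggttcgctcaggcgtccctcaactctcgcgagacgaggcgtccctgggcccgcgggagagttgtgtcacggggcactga
AGA, chr4:177442388-177442687, minus strand: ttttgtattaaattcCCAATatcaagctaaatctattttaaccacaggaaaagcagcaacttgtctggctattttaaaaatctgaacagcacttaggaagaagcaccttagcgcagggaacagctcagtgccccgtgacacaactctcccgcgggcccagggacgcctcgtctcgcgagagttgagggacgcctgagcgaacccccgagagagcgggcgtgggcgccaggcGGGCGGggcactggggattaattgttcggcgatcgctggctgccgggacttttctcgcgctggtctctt
CDK6-AS1, chr7:92836233-92836532, plus strand: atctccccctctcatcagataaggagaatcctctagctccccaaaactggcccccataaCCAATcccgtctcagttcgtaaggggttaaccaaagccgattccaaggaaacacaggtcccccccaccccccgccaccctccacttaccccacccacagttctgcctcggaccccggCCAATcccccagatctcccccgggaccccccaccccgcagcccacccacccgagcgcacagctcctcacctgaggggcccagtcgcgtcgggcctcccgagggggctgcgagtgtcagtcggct
CDK6, chr7:92836524-92836823, minus strand: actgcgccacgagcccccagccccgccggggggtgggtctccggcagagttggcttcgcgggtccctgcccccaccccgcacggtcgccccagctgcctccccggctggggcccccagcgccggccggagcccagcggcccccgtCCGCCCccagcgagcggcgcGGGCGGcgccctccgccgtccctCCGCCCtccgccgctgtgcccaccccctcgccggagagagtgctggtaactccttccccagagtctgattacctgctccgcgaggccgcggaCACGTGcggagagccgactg
ODC1-DT, chr2:10449478-10449777, plus strand: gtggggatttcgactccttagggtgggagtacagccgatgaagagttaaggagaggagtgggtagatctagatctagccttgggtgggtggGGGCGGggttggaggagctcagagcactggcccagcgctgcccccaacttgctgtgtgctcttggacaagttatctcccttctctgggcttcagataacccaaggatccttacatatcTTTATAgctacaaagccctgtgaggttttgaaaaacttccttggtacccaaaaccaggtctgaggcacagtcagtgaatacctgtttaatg
MAP3K4-AS1, chr6:160992293-160992592, minus strand: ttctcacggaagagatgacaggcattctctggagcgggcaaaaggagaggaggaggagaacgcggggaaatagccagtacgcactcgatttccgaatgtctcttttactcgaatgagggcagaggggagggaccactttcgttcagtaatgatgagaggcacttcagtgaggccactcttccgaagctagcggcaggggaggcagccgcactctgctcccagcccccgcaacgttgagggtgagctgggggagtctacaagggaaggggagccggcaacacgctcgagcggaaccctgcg
The AGA pair holds 1 GC box, seen from both sides in the shared stretch, and AGA a CCAAT box farther upstream. CDK6-AS1 has 2 CCAAT boxes and CDK6 has 3 GC boxes and 1 E-box. ODC1-DT has 1 GC box and 1 TATA box on the other strand, and its observed to expected CpG ratio of 0.207 is below the median of all promoters. MAP3K4-AS1 holds none of the 7 motifs searched, which besides those named were the NRF1 core GCGCATGC and the YY1 core AAGATGG.

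As a group, the transcripts stood higher in homozygous cells than in wild type. The median log2 fold change of the 377 transcripts was 0.19 in homozygous against wild type, compared with -0.05 for their tested partners and 0.01 for all 16837 tested genes. A positive value was found for 273 transcripts, or 72.4%, against 51.4% of all tested genes. In heterozygous against wild type the median was 0.04, and in homozygous against heterozygous it was 0.13.

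Library by library, the median log2(CPM + 0.1), set against the wild-type mean, came to 0.15, 0.23 and 0.12 in homozygous replicates 1, 2 and 3, 0.09, 0.06 and -0.02 in heterozygous replicates and 0.02, -0.003 and -0.006 in wild-type replicates. The 3 homozygous libraries were above all others, and heterozygous replicate 3 was below the wild-type libraries. The summed level of the transcripts was 2687 to 2751 CPM in homozygous, 2560 to 2594 CPM in heterozygous and 2499 to 2547 CPM in wild-type libraries, with no overlap between genotypes. The gap between the heterozygous and wild-type sums was smaller than the spread of OIP5-AS1, the highest transcript, over the heterozygous libraries. That gap therefore does not show a rise of the group in heterozygous cells.

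Other genes at low levels also stood higher in homozygous cells. Between 1 and 2 CPM, the median log2 fold change in homozygous against wild type was 0.19 for the transcripts and 0.13 for the other tested genes. Between 10 and 50 CPM it was 0.14 for 56 transcripts and -0.01 for the other genes. Antisense-type genes of the annotation that were not in the set had a median of 0.19 over 594 tested genes, lincRNA genes 0.09 over 686 and protein-coding genes -0.01 over 13562. What part level and RNA class have in the shift was not tested.

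**Figure D2:**
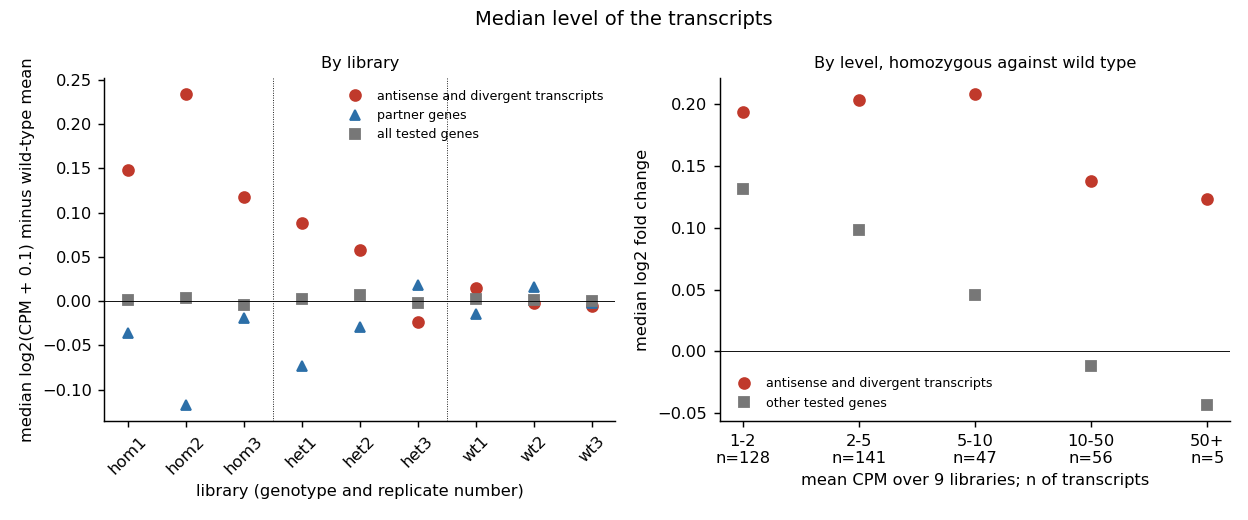
Left, median log2(CPM + 0.1) minus the wild-type mean (vertical axis) in each library (horizontal axis) for the transcripts, their partners and all tested genes. Right, median log2 fold change in homozygous against wild type (vertical axis) by mean CPM (horizontal axis) for the transcripts and for other tested genes; the homozygous libraries have transcript medians of 0.12 to 0.23, and the transcript median exceeds that of other genes in every level range shown.

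In homozygous against wild type, 28 of the 377 transcripts were called, 20 up and 8 down, which is 7.43%. Of all tested genes 7.68% were called, 3.5% up and 4.18% down, and of the 13845 with a mean of at least 1 CPM, like every transcript described here, 8.43% were called, 3.75% up and 4.68% down. The share called was thus near that of the table as a whole. The genotypes did not overlap for 125 transcripts, 97 higher and 28 lower in homozygous libraries, beside 28.9% of all tested genes and 30.7% of those with at least 1 CPM. All 28 called transcripts were among these. The 7 called -DT transcripts were all up, while the -AS transcripts had 13 up and 8 down. Among the 94 back-to-back transcripts 8 were up and 0 down in edgeR, and DESeq2 called 43 transcripts of the whole set, 33 up and 10 down. Over all genes DESeq2 called 1765, or 10.9% of those with an adjusted p, where edgeR called 1293. Of the 141 transcripts whose exons share no base with the partner, 11 were called, 10 up and 1 down. The count fell to 15 without homozygous replicate 2 and to 13 without wild-type replicate 2 or 3, and was 50 without homozygous replicate 3; over all tested genes the same omissions gave 862, 651, 700 and 2118 calls.

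**Figure D3:**
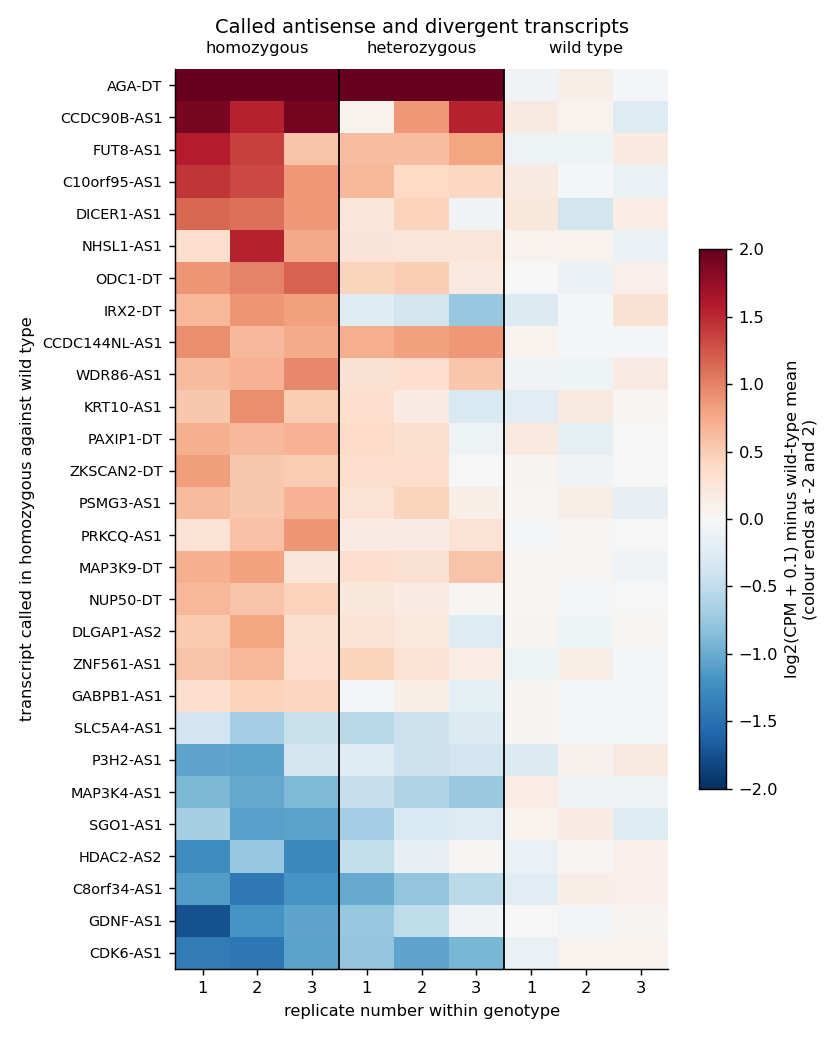
Log2(CPM + 0.1) of the 28 called transcripts relative to their wild-type mean (colour, cut at -2 and 2), with 1 row per transcript sorted by fold change and 1 column per library. The upper 20 rows are higher and the lower 8 rows lower in all homozygous than in all wild-type libraries.

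Partners were called in 32 of 346 cases in the same comparison, 10 up and 22 down, or 9.25% (upper quartile scaling gave 14 up and 19 down). Of all tested genes 7.68% were called, 3.5% up and 4.18% down. Of those with at least 1 CPM 8.43% were called, 3.75% up and 4.68% down. The count of partners became 20, 19 and 58 without homozygous replicate 1, 2 and 3, and 16 and 18 without wild-type replicate 2 and 3. Transcript and partner were both called in 6 pairs, 5 in the same direction and 1 in opposite directions. In 19 pairs the transcript alone was called and in 26 the partner alone, while 3 called transcripts had no tested partner. Across the 350 pairs the log2 fold changes of transcript and partner had a Pearson r of 0.36 and a Spearman rho of 0.28, given as a description, since both come from the same libraries and overlapping genes may share reads. The sign was the same in 181 pairs.

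The same-direction pairs that fell were at CDK6, GDNF and C8orf34. CDK6 encodes a cyclin-dependent kinase that drives cells through G1. Values are given for replicates 1, 2 and 3 in order. CDK6-AS1 (ENSG00000237819, chromosome 7, plus strand) had 1.34, 1.29 and 1.69 CPM in homozygous, 2.08, 1.72 and 1.91 CPM in heterozygous and 3.35, 3.87 and 3.86 CPM in wild-type libraries. The 3 genotypes did not overlap, with homozygous lowest. CDK6 had 71.0, 51.7 and 97.6 CPM in homozygous, 90.6, 105 and 134 CPM in heterozygous and 152, 202 and 193 CPM in wild-type libraries, so both mutants lay below wild type and overlapped each other. In homozygous against wild type the log2 fold change stood at -1.35 (SE 0.21, adjusted p = 0.00138) for CDK6-AS1 and -1.32 (SE 0.20, adjusted p = 0.00155) for CDK6. The log2 ratio of CDK6-AS1 to CDK6 differed by 0.04 between these genotypes and their libraries overlapped (exact permutation test, two-sided, p = 0.9).

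GDNF encodes a secreted ligand of the RET receptor that guides kidney and enteric nerve development, and GDNF-AS1 spans it on the other strand. GDNF-AS1 had 2.92, 4.33 and 4.78 CPM in homozygous, 5.89, 7.05 and 9.53 CPM in heterozygous and 10.05, 9.70 and 10.5 CPM in wild-type libraries. GDNF had 3.51, 3.77 and 4.68 CPM in homozygous, 8.26, 10.9 and 9.74 CPM in heterozygous and 13.6, 15.0 and 13.2 CPM in wild-type libraries. Both rank the genotypes in the same order with no overlap. In homozygous against wild type GDNF fell by 1.80 on the log2 scale (SE 0.16, adjusted p = 2.14e-05) and GDNF-AS1 by 1.30 (SE 0.20, adjusted p = 0.00171). Their annotated exons share 526 bases.

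C8orf34-AS1, on chromosome 8, had 2.84, 2.25 and 2.69 CPM in homozygous, 3.06, 3.58 and 4.28 CPM in heterozygous and 5.31, 6.82 and 6.72 CPM in wild-type libraries, again in order and without overlap. Its log2 fold change in homozygous against wild type was -1.29 (SE 0.19, adjusted p = 0.00127). C8orf34 averaged 3.96 ± 0.524 CPM in homozygous, 4.19 ± 0.843 CPM in heterozygous and 6.23 ± 0.306 CPM in wild-type libraries (SD, n = 3 each), with a change of -0.66 on the log2 scale (SE 0.18, adjusted p = 0.0436). The call of C8orf34 was lost without homozygous replicate 1 or 2, heterozygous replicate 2 or any wild-type replicate, at adjusted p = 0.072 to 0.173, and under upper quartile scaling (adjusted p = 0.0507).

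The remaining same-direction pairs rose, at FUT8 and WDR86. FUT8 encodes the fucosyltransferase that adds core fucose to N-glycans, and FUT8-AS1 lies inside it. FUT8-AS1 had 4.93, 4.27 and 2.39 CPM in homozygous, 2.47, 2.48 and 2.80 CPM in heterozygous and 1.47, 1.47 and 1.83 CPM in wild-type libraries. FUT8 had 74.9, 68.9 and 54.1 CPM in homozygous, 58.0, 60.1 and 59.3 CPM in heterozygous and 43.2, 43.9 and 43.5 CPM in wild-type libraries. For both, the mutants overlapped each other and lay above wild type. The log2 fold change in homozygous against wild type was 1.27 (SE 0.26, adjusted p = 0.00881) for FUT8-AS1 and 0.60 (SE 0.11, adjusted p = 0.00403) for FUT8, whose exons share 824 bases in the annotation. WDR86-AS1 averaged 22.6 ± 2.83 CPM in homozygous, 17.6 ± 1.75 CPM in heterozygous and 13.3 ± 1.31 CPM in wild-type libraries, and WDR86 64.5 ± 3.55, 43.6 ± 4.37 and 41.2 ± 3.98 CPM (SD, n = 3 each). Their log2 fold changes in homozygous against wild type were 0.77 (SE 0.13, adjusted p = 0.00237) and 0.65 (SE 0.10, adjusted p = 0.00173).

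The single pair called in opposite directions was at GABPB1, which encodes a subunit of the ETS-family factor GABP that controls nuclear genes of mitochondrial function. GABPB1-AS1 had 25.3, 27.3 and 26.7 CPM in homozygous, 19.5, 21.6 and 17.3 CPM in heterozygous and 20.7, 19.3 and 19.6 CPM in wild-type libraries. GABPB1 had 31.3, 32.9 and 31.1 CPM in homozygous, 40.2, 39.2 and 37.2 CPM in heterozygous and 39.9, 40.6 and 40.0 CPM in wild-type libraries. The homozygous libraries stood apart from the other 6 in both genes, and the heterozygous and wild-type libraries overlapped. GABPB1-AS1 rose by 0.42 (SE 0.10, adjusted p = 0.0287) and GABPB1 fell by 0.34 (SE 0.08, adjusted p = 0.0226) on the log2 scale in homozygous against wild type. The log2 ratio of GABPB1-AS1 to GABPB1 was -0.31, -0.27 and -0.22 in homozygous and -0.95, -1.07 and -1.03 in wild-type libraries, a difference of 0.75 (exact permutation test, two-sided, p = 0.1, the smallest that 3 against 3 libraries allow). The call of GABPB1-AS1 was lost without homozygous replicate 1 or 2 or any wild-type replicate (adjusted p = 0.0501 to 0.129), and that of GABPB1 without homozygous replicate 1 or any wild-type replicate (adjusted p = 0.0618 to 0.114) and under upper quartile scaling (adjusted p = 0.0514).

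**Figure D4:**
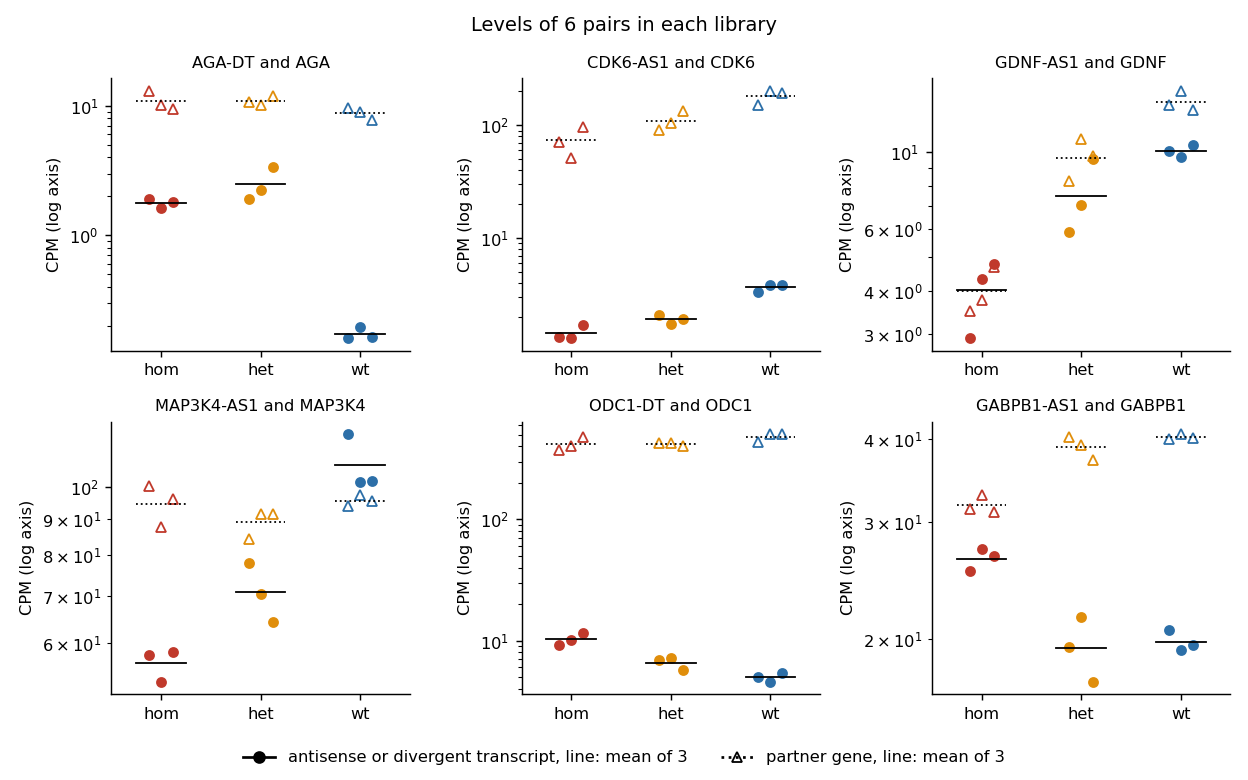
CPM on log axes (vertical) in each library by genotype (horizontal) for 6 pairs, with filled circles for the transcript, open triangles for the partner and lines at the means of 3 libraries. CDK6-AS1 and GDNF-AS1 are lower in homozygous cells together with their partners, MAP3K4-AS1 is lower beside a partner at 94.6 and 95.6 CPM in homozygous and wild type, and AGA-DT is higher in both mutants.

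Among transcripts that fell without a called partner, MAP3K4-AS1 had the highest level. MAP3K4 encodes a stress-activated kinase upstream of JNK and p38. MAP3K4-AS1 (ENSG00000272841, chromosome 6, minus strand) had 57.6, 52.9 and 58.2 CPM in homozygous, 78.0, 70.5 and 64.2 CPM in heterozygous and 119, 102 and 102 CPM in wild-type libraries. The 3 genotypes were in order and did not overlap. MAP3K4 had 100.2, 87.6 and 96.0 CPM in homozygous, 84.3, 91.6 and 91.5 CPM in heterozygous and 93.9, 97.3 and 95.6 CPM in wild-type libraries, and homozygous and wild type overlapped. In homozygous against wild type the log2 fold change stood at -0.94 (SE 0.10, adjusted p = 7.16e-05) for MAP3K4-AS1 and -0.02 (SE 0.08, adjusted p = 0.926) for MAP3K4. Their log2 ratio differed by -0.91, with no overlap (exact permutation p = 0.1, two-sided, the smallest possible).

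HDAC2-AS2, beside the histone deacetylase gene HDAC2, had 1.75, 2.51 and 1.69 CPM in homozygous, 3.02, 3.83 and 4.36 CPM in heterozygous and 3.91, 4.39 and 4.65 CPM in wild-type libraries. Homozygous libraries were below all others, and the log2 fold change against wild type was -1.08 (SE 0.22, adjusted p = 0.00831), while HDAC2 had -0.07 (SE 0.08, adjusted p = 0.637). SGO1-AS1, beside the gene of shugoshin, which protects centromeric cohesion, had 2.34, 1.72 and 1.74 CPM in homozygous, 2.31, 3.03 and 3.13 CPM in heterozygous and 3.99, 4.23 and 3.19 CPM in wild-type libraries. Both mutants lay below wild type, and the log2 fold change in homozygous against wild type was -1.01 (SE 0.22, adjusted p = 0.0124) beside 0.22 (SE 0.11, adjusted p = 0.243) for SGO1. SGO1-AS1 lost its call without replicate 2 of the homozygous (adjusted p = 0.0587) or wild-type libraries (adjusted p = 0.0683).

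P3H2-AS1, beside the collagen prolyl 3-hydroxylase gene P3H2, had 22.8, 22.5 and 36.6 CPM in homozygous, 40.2, 35.1 and 36.1 CPM in heterozygous and 39.3, 50.4 and 53.5 CPM in wild-type libraries. Homozygous replicate 3 lay close to the wild-type range, and the log2 fold change stood at -0.80 (SE 0.17, adjusted p = 0.0136) beside -0.21 (SE 0.08, adjusted p = 0.136) for P3H2. The call was lost without homozygous replicate 1 or 2 or wild-type replicate 2 or 3, at adjusted p = 0.0548 to 0.0662. SLC5A4-AS1 averaged 13.8 ± 1.47 CPM in homozygous, 14.5 ± 1.42 CPM in heterozygous and 19.4 ± 0.655 CPM in wild-type libraries (SD, n = 3 each), with a log2 fold change of -0.50 in homozygous against wild type (SE 0.12, adjusted p = 0.0216), and its partner was not analysed here. That call was lost without homozygous replicate 2 or any wild-type replicate, at adjusted p = 0.0731 to 0.086.

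AGA-DT had the largest positive log2 fold change. It is divergent from AGA, the gene of the lysosomal enzyme aspartylglucosaminidase, and it had 1.92, 1.62 and 1.79 CPM in homozygous, 1.92, 2.23 and 3.39 CPM in heterozygous and 0.161, 0.197 and 0.166 CPM in wild-type libraries. The mutants overlapped each other and stood far above wild type, where the 3 libraries held 16 reads in all, against 108 in homozygous and 200 in heterozygous libraries. AGA had 13.0, 10.1 and 9.46 CPM in homozygous, 10.7, 10.1 and 11.9 CPM in heterozygous and 9.67, 8.95 and 7.72 CPM in wild-type libraries. The log2 fold change of AGA-DT was 3.30 in homozygous against wild type (SE 0.35, adjusted p = 8.17e-05) and 3.80 in heterozygous against wild type (SE 0.34, adjusted p = 3.77e-05), and both calls held in all 17 other settings tried. AGA-DT reached the mean of 1 CPM only through the mutant libraries, as its wild-type mean was 0.174 CPM, so its place at the top of the list follows in part from how the transcripts were chosen. A wild-type mean under 1 CPM was found for 21 transcripts, of which AGA-DT and CCDC90B-AS1 were called. AGA had 0.29 (SE 0.15, adjusted p = 0.277) and 0.31 (SE 0.15, adjusted p = 0.397), and its libraries overlapped between homozygous and wild type but not between heterozygous and wild type, where heterozygous libraries were all higher.

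ODC1-DT is divergent from ODC1, the gene of ornithine decarboxylase, which makes the first polyamine. ODC1-DT had 9.27, 10.02 and 11.5 CPM in homozygous, 6.86, 7.16 and 5.72 CPM in heterozygous and 5.04, 4.59 and 5.39 CPM in wild-type libraries. The genotypes were in order and did not overlap. ODC1 had 375, 404 and 477 CPM in homozygous, 423, 424 and 401 CPM in heterozygous and 436, 505 and 506 CPM in wild-type libraries. In homozygous against wild type the log2 fold change stood at 1.04 (SE 0.15, adjusted p = 0.000879) for ODC1-DT and -0.20 (SE 0.10, adjusted p = 0.229) for ODC1. Their log2 ratio differed by 1.22 with no overlap (exact permutation p = 0.1, two-sided, the smallest possible).

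CCDC90B-AS1 had 3.84, 2.98 and 3.89 CPM in homozygous, 1.01, 1.83 and 2.96 CPM in heterozygous and 1.10, 1.02 and 0.788 CPM in wild-type libraries, and the heterozygous libraries overlapped wild type and stayed just below the homozygous range. Its log2 fold change in homozygous against wild type was 1.85 (SE 0.34, adjusted p = 0.00464), beside 0.24 (SE 0.07, adjusted p = 0.0708) for CCDC90B. C10orf95-AS1 had 8.94, 8.23 and 5.98 CPM in homozygous, 5.17, 4.31 and 4.36 CPM in heterozygous and 3.67, 3.15 and 2.95 CPM in wild-type libraries, in order and without overlap, with a change of 1.23 on the log2 scale (SE 0.18, adjusted p = 0.00128). Its partner was too low to be tested, as was that of CCDC144NL-AS1.

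CCDC144NL-AS1 had 64.7, 53.3 and 56.7 CPM in homozygous, 56.0, 60.1 and 61.8 CPM in heterozygous and 35.4, 33.4 and 32.9 CPM in wild-type libraries. Both mutants stood above wild type and overlapped each other: the log2 fold change against wild type was 0.78 in homozygous (SE 0.09, adjusted p = 0.000202) and 0.81 in heterozygous libraries (SE 0.09, adjusted p = 0.000302), and that between the mutants was -0.03 (SE 0.09, adjusted p = 0.893).

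DICER1-AS1, beside the gene of the ribonuclease that makes microRNAs, had 3.17, 3.08 and 2.59 CPM in homozygous, 1.66, 1.93 and 1.31 CPM in heterozygous and 1.63, 1.05 and 1.53 CPM in wild-type libraries. The homozygous libraries were above all others, with a log2 fold change against wild type of 1.06 (SE 0.24, adjusted p = 0.018) beside -0.25 (SE 0.15, adjusted p = 0.328) for DICER1, and the call was lost without homozygous replicate 1 or 2 or wild-type replicate 2 or 3 (adjusted p = 0.0539 to 0.0925). NHSL1-AS1 had 2.004, 4.73 and 2.69 CPM in homozygous, 1.89, 1.86 and 1.86 CPM in heterozygous and 1.63, 1.64 and 1.41 CPM in wild-type libraries. Homozygous replicate 2 was the highest, and the log2 fold change of 1.05 (SE 0.28, adjusted p = 0.0365) became 0.60 without it (adjusted p = 0.228), and the call was also lost without heterozygous replicate 2 or any wild-type replicate (adjusted p = 0.0611 to 0.134) and in a fit of only the 6 libraries compared (adjusted p = 0.0689). The other rises not named elsewhere had log2 fold changes of 0.55 (ZNF561-AS1) to 0.69 (KRT10-AS1).

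Where the partner alone was called in homozygous against wild type, the 6 with the largest change were SLC16A4, EGFLAM, PDE6B, FGD5, PDK1 and ATP8B1. EGFLAM, which encodes the matrix protein pikachurin, had 23.8, 22.0 and 36.0 CPM in homozygous, 13.9, 15.4 and 16.7 CPM in heterozygous and 9.41, 8.95 and 10.9 CPM in wild-type libraries, all in order. Its log2 fold change was put at 1.49 (SE 0.18, adjusted p = 0.00019), and that of EGFLAM-AS4, which lies inside it, was 0.21 (SE 0.15, adjusted p = 0.407). PDK1, which encodes a kinase that holds back pyruvate dehydrogenase, had 28.98, 24.5 and 26.0 CPM in homozygous, 42.4, 42.9 and 36.0 CPM in heterozygous and 67.2, 60.2 and 55.4 CPM in wild-type libraries. The 3 genotypes did not overlap, with a change of -1.21 on the log2 scale (SE 0.11, adjusted p = 2.37e-05) beside -0.45 (SE 0.22, adjusted p = 0.251) for PDK1-AS1.

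PDE6B, known as a subunit of the rod photoreceptor phosphodiesterase, averaged 11.1 ± 1.77 CPM in homozygous, 4.34 ± 1.04 CPM in heterozygous and 4.49 ± 0.619 CPM in wild-type libraries, and ATP8B1, a phospholipid flippase, 3.16 ± 0.687, 6.67 ± 1.05 and 6.72 ± 1.77 CPM (SD, n = 3 each). Their log2 fold changes in homozygous against wild type were 1.29 (SE 0.20, adjusted p = 0.00143) and -1.12 (SE 0.23, adjusted p = 0.0085), beside 0.76 (SE 0.38, adjusted p = 0.253) for PDE6B-AS1 and -0.26 (SE 0.25, adjusted p = 0.565) for ATP8B1-AS1. FGD5, an exchange factor for Cdc42 known from endothelium, had 1.16 (SE 0.26, adjusted p = 0.0148) beside 0.04 (SE 0.09, adjusted p = 0.825) for FGD5-AS1, and SLC16A4, of the monocarboxylate transporter family, had 1.54 (SE 0.43, adjusted p = 0.0451) beside 0.37 (SE 0.23, adjusted p = 0.368) for SLC16A4-AS1. The FGD5 call was lost without homozygous replicate 1 or wild-type replicate 2 or 3 (adjusted p = 0.0619 to 0.0729), and the SLC16A4 call in 7 of the 9 omissions of a library (adjusted p = 0.0613 to 0.164), with no filter on low counts (adjusted p = 0.0539) and in a fit of only the 6 libraries compared (adjusted p = 0.0671). A call in the partner alone does not show that transcript and partner differ.

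**Figure D5:**
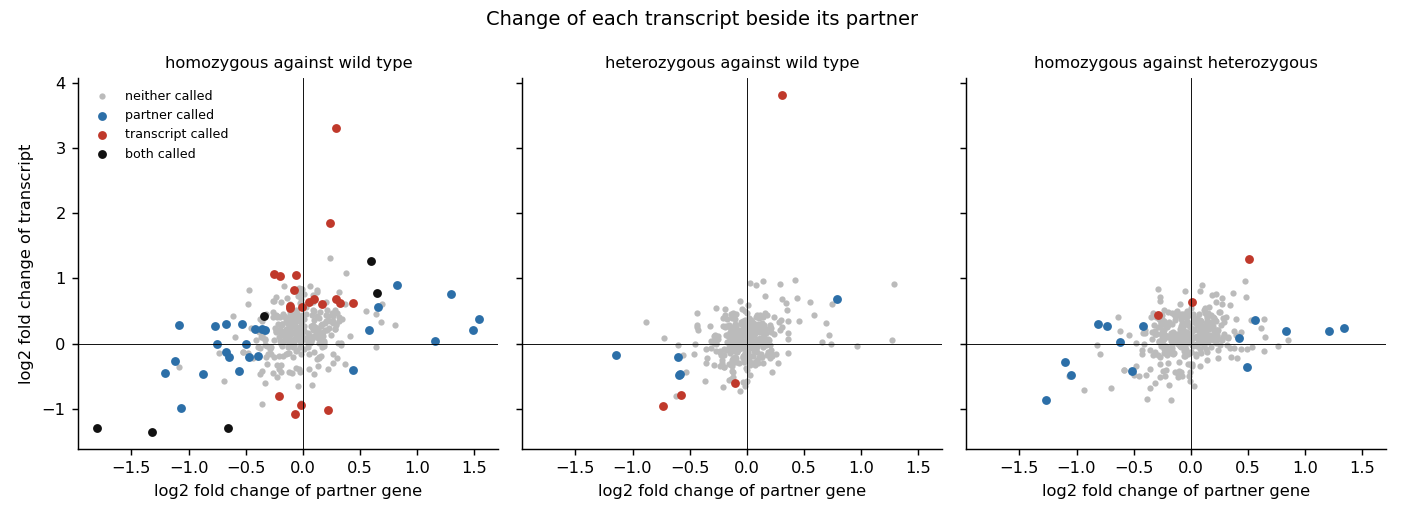
Log2 fold change of each transcript (vertical axis) against that of its partner (horizontal axis) for the 350 pairs, with 1 panel per comparison and colours for which of the pair was called. Black points, both called, appear in homozygous against wild type only, 5 of the 6 with the same sign; AGA-DT is the point at 3.30 in the left and 3.80 in the middle panel.

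In heterozygous against wild type, 5 of 377 transcripts were called, 2 up and 3 down, or 1.33% beside 1.86% of all tested genes (0.82% up and 1.04% down) and 1.97% of those with at least 1 CPM (0.881% up and 1.09% down). The genotypes did not overlap for 84 transcripts, 56 higher and 28 lower in heterozygous libraries, beside 22.2% of all tested genes and 23.3% of those with at least 1 CPM. The count of 5 became 3 without heterozygous replicate 1 or 2 or wild-type replicate 2 or 3. The rises were AGA-DT and CCDC144NL-AS1, given above. The falls were CDK6-AS1 at -0.95 (SE 0.19, adjusted p = 0.0253), C8orf34-AS1 at -0.79 (SE 0.18, adjusted p = 0.0463) and MAP3K4-AS1 at -0.60 (SE 0.10, adjusted p = 0.00526) on the log2 scale. Both comparisons with wild type share the wild-type libraries. CDK6-AS1 lost its call without any one heterozygous replicate or wild-type replicate 2 or 3 (adjusted p = 0.0538 to 0.154), and C8orf34-AS1 without homozygous replicate 1, heterozygous replicate 1 or 2 or wild-type replicate 2 or 3 (adjusted p = 0.0646 to 0.269).

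Partners were called in 5 of 346 cases in heterozygous against wild type, and no pair had both called. That is 1.45%, beside 1.86% of all tested genes and 1.97% of those with at least 1 CPM. This count of 5 became 9 and 15 without homozygous replicate 2 and 3, 3 without heterozygous replicate 1 or 2, and 9, 2 and 3 without wild-type replicate 1, 2 and 3. THUMPD3, which encodes a tRNA methyltransferase, had 56.0, 44.7 and 41.6 CPM in homozygous, 18.6, 20.8 and 21.9 CPM in heterozygous and 44.3, 46.3 and 44.8 CPM in wild-type libraries. The heterozygous libraries alone were low: the log2 fold change was -1.14 in heterozygous against wild type (SE 0.11, adjusted p = 0.000108) and 0.07 in homozygous against wild type (SE 0.11, adjusted p = 0.755). THUMPD3-AS1 averaged 17.6 ± 0.365 CPM in homozygous, 15.4 ± 1.76 CPM in heterozygous and 17.4 ± 2.35 CPM in wild-type libraries (SD, n = 3 each) and its log2 fold change in heterozygous against wild type was -0.17 (SE 0.12, adjusted p = 0.612).

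LAMTOR5, a subunit of the Ragulator complex that anchors mTORC1 signalling at lysosomes, had 44.1, 50.2 and 46.0 CPM in homozygous, 46.3, 44.5 and 47.1 CPM in heterozygous and 25.7, 27.3 and 26.6 CPM in wild-type libraries. Both mutants stood above wild type and overlapped each other, with log2 fold changes of 0.82 in homozygous (SE 0.09, adjusted p = 6.79e-05) and 0.79 in heterozygous libraries (SE 0.08, adjusted p = 0.0002). LAMTOR5-AS1 had 0.89 (SE 0.33, adjusted p = 0.124) and 0.68 (SE 0.32, adjusted p = 0.388). TIAM1, an exchange factor for Rac, had -0.61 in heterozygous against wild type (SE 0.13, adjusted p = 0.0386), PDK1 had -0.59 (SE 0.11, adjusted p = 0.0112) and the homeobox gene IRX2 had -0.59 (SE 0.12, adjusted p = 0.0318). Their transcripts TIAM1-AS1, PDK1-AS1 and IRX2-DT had -0.20, -0.48 and -0.47 and were not called. The TIAM1 call was lost without homozygous replicate 1, any heterozygous replicate or wild-type replicate 2 or 3 (adjusted p = 0.0533 to 0.233), that of IRX2 without any heterozygous replicate or wild-type replicate 2 or 3 (adjusted p = 0.0581 to 0.199) and that of PDK1 without wild-type replicate 2 (adjusted p = 0.0553).

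In homozygous against heterozygous, 3 transcripts were called, 3 up and 0 down, or 0.796% beside 2.21% of all tested genes (0.986% up and 1.22% down) and 2.46% of those with at least 1 CPM (1.05% up and 1.4% down). The genotypes did not overlap for 81 transcripts, 61 higher and 20 lower in homozygous libraries, beside 19.5% of all tested genes and 20.3% of those with at least 1 CPM. IRX2-DT had 3.01, 3.54 and 3.39 CPM in homozygous, 1.56, 1.42 and 1.06 CPM in heterozygous and 1.53, 1.84 and 2.32 CPM in wild-type libraries, so the homozygous libraries were above all others. Its log2 fold change was 1.29 against heterozygous (SE 0.23, adjusted p = 0.0128) and 0.83 against wild type (SE 0.23, adjusted p = 0.0431). IRX2 had 22.5, 24.7 and 28.4 CPM in homozygous, 17.8, 17.2 and 18.2 CPM in heterozygous and 22.3, 28.9 and 28.8 CPM in wild-type libraries, and its log2 fold change in homozygous against heterozygous was 0.51 (SE 0.12, adjusted p = 0.055). GABPB1-AS1 had 0.44 (SE 0.10, adjusted p = 0.047) and ODC1-DT 0.64 (SE 0.15, adjusted p = 0.0417) against heterozygous.

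These calls were close to the threshold. Between the mutants, GABPB1-AS1 lost its call in each of the 9 omissions of a library (adjusted p = 0.0677 to 0.119) and ODC1-DT likewise (adjusted p = 0.051 to 0.105), and both in a fit of only the 6 libraries compared (adjusted p = 0.13 and 0.107). GABPB1-AS1 also lost it with no filter on low counts (adjusted p = 0.0526), while IRX2-DT lost its call without homozygous replicate 2 (adjusted p = 0.0504) or heterozygous replicate 2 (adjusted p = 0.0621). Against wild type, IRX2-DT lost its call in 8 of the 9 omissions (adjusted p = 0.0525 to 0.154), with no filter (adjusted p = 0.0502) and with only 6 libraries (adjusted p = 0.0519). The count of 3 became 0 without heterozygous replicate 2 and 1, a rise, without homozygous replicate 1, heterozygous replicate 3 or any wild-type replicate. The direction of the calls varied too: without homozygous replicate 2 the single call was a fall, without homozygous replicate 3 there were 2 rises and 2 falls, and DESeq2 called 10 up and 3 down.

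Partners were called in 14 of 346 cases between the mutants, 6 up and 8 down, or 4.05%, and no pair had both called. Of all tested genes 2.21% were called, and of those with at least 1 CPM 2.46% (1.05% up and 1.4% down). The count of 14 became 9 and 5 without heterozygous replicate 1 and 2. PDE6B had a change of 1.34 on the log2 scale (SE 0.20, adjusted p = 0.00334), THUMPD3 1.21 (SE 0.12, adjusted p = 7.75e-05) and EGFLAM 0.83 (SE 0.17, adjusted p = 0.0259). GDNF had -1.26 (SE 0.16, adjusted p = 0.000843), ATP8B1 -1.10 (SE 0.23, adjusted p = 0.0265) and SLC7A14 -1.05 (SE 0.16, adjusted p = 0.00464). GDNF-AS1 had -0.86 in the same comparison (SE 0.21, adjusted p = 0.0504), just outside the threshold, while the transcripts of the other 5 lay between -0.49 for SLC7A14-AS1 and 0.24 for PDE6B-AS1. The ATP8B1 call was lost without homozygous replicate 2 or 3 or heterozygous replicate 2 or 3 (adjusted p = 0.0636 to 0.0861), and that of EGFLAM without heterozygous replicate 1 or 2 (adjusted p = 0.0731 and 0.106) and with only 6 libraries (adjusted p = 0.0626).

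Of the listed lineage and signalling regulators, 5 had such a transcript with a mean of at least 1 CPM beside them. These transcripts, GATA6-AS1, LHX1-DT, FOXD3-AS1, SOX21-AS1 and ZEB1-AS1, had no call in any comparison. The list does not hold IRX2, whose divergent transcript was called. GATA6 is a zinc finger factor needed for endoderm, and GATA6-AS1 had 99.8, 123 and 107 CPM in homozygous, 94.5, 83.1 and 91.8 CPM in heterozygous and 93.0, 87.8 and 89.7 CPM in wild-type libraries. The homozygous libraries were above all others, but the log2 fold change against wild type was 0.29 (SE 0.09, adjusted p = 0.0738), beside -0.07 (SE 0.08, adjusted p = 0.59) for GATA6. SOX21-AS1 had 1.42, 0.628 and 0.946 CPM in homozygous, 1.20, 1.75 and 1.57 CPM in heterozygous and 1.93, 2.10 and 1.49 CPM in wild-type libraries, and homozygous and wild type did not overlap.

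The log2 fold change in homozygous against wild type was -0.98 for SOX21-AS1 (SE 0.31, adjusted p = 0.078). SOX21, a SOX family factor, had -1.06 (SE 0.24, adjusted p = 0.0152), a call that was lost without homozygous replicate 1 or 2 or wild-type replicate 1 (adjusted p = 0.0591 to 0.0729). LHX1-DT, beside a LIM homeobox gene of the early embryo, had 0.38 (SE 0.20, adjusted p = 0.282), and ZEB1-AS1, beside a repressor of epithelial genes, had -0.13 (SE 0.21, adjusted p = 0.753). FOXD3-AS1 had 9.14, 7.59 and 2.29 CPM in heterozygous libraries and FOXD3 6.25, 5.95 and 1.02 CPM, so that heterozygous replicate 3 was low in both.

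Of the 8 transcripts with the highest mean level, MAP3K4-AS1, CCDC144NL-AS1 and DLGAP1-AS2 were called in homozygous against wild type. OIP5-AS1, also known as Cyrano, which directs the decay of the microRNA miR-7, was the highest, with 289.8, 199 and 211 CPM in homozygous, 217, 221 and 278 CPM in heterozygous and 229.7, 210.0 and 201 CPM in wild-type libraries. Its genotypes overlapped and its log2 fold change in homozygous against wild type stood at 0.12 (SE 0.14, adjusted p = 0.63). DLGAP1-AS2 had 59.3, 70.8 and 51.4 CPM in homozygous, 49.9, 47.4 and 34.4 CPM in heterozygous and 42.9, 38.9 and 41.7 CPM in wild-type libraries. Homozygous libraries were above all others, with a log2 fold change against wild type of 0.56 (SE 0.14, adjusted p = 0.0316) beside -0.01 (SE 0.16, adjusted p = 0.978) for DLGAP1, and the call was lost without homozygous replicate 1 or 2 or any wild-type replicate (adjusted p = 0.0677 to 0.131).

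FGD5-AS1, TP73-AS1 and LIMD1-AS1 had log2 fold changes in homozygous against wild type of 0.04, 0.07 and 0.23 (SE 0.09, 0.09 and 0.08, adjusted p = 0.825, 0.68 and 0.115). Per kilobase of exon, MAP3K4-AS1 had 27.8 in homozygous, 35.0 in heterozygous and 53.1 in wild-type CPM per kilobase, against 12.6, 11.9 and 12.7 for MAP3K4. GATA6-AS1 was instead far below GATA6, at 34.7, 28.3 and 28.4 against 172, 165 and 182 CPM per kilobase in the same order.

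Genes of the machinery that removes antisense and divergent transcripts, the RNA exosome, its adaptors and termination factors such as Integrator, had 1 called change. The 57 symbols listed, some of them older names of other listed genes, stood for 51 genes, and all were tested. In homozygous against wild type 0 were called up and 1 down, or 1.96% beside 7.68% of all tested genes, with a median log2 fold change of -0.05. It was RBM7, an RNA-binding subunit of the exosome adaptor NEXT, with 36.2, 33.8 and 39.7 CPM in homozygous, 43.7, 46.2 and 53.2 CPM in heterozygous and 49.7, 48.2 and 43.6 CPM in wild-type libraries. The homozygous libraries were below all others, and the log2 fold change against wild type was -0.37 (SE 0.10, adjusted p = 0.0455), a call lost without homozygous replicate 1 or 2, heterozygous replicate 2 or any wild-type replicate (adjusted p = 0.0718 to 0.179) under both other scalings (adjusted p = 0.0518 and 0.0591) and with the filter of 1 CPM in 3 libraries (adjusted p = 0.0544). edgeR called 0 of the 51 in heterozygous against wild type and 0 in homozygous against heterozygous, with 3 and 6 at an unadjusted p under 0.05, and 6 in homozygous against wild type. In the same order these are 5.88%, 11.8% and 11.8% of the 51, beside 13.5%, 18.3% and 23.2% of all tested genes. What part RBM7 has in the higher transcript levels was not tested.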

How the data were processed

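RNA sequencing of 9 libraries of H9-derived definitive endoderm was deposited as 1 table of raw read counts per Ensembl gene with no pooling of replicates; build hg38 and the authors' tools, HTSeq and HISAT2 with SAMtools, Trimmomatic and FastQC, are named in the submitters' processing notes, without versions. No source used here gives the strand setting or annotation release of the counting. All deposited counts are whole numbers, with totals of 11854173 to 37519729 per library.

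Symbols were matched for 26177 of 26240 rows and coordinates for 25209, from GENCODE release 29. The antisense and divergent transcripts, the gene lists and the alternatives were chosen with earlier results of these data known. Levels are CPM scaled by TMM factors. In R 4.3.3 with edgeR 4.0.16, filterByExpr kept 16837 genes, which were fitted by genotype on all 9 libraries with the quasi-likelihood test; two-sided p-values were adjusted over all 16837 genes by the Benjamini-Hochberg method and called below 0.05. The SE is the log2 fold change divided by the square root of F. The fit was tested on simulated data. Log2 ratios of pairs used CPM + 0.1 and an exact permutation test.

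Named transcripts were those called in a comparison without overlap of its libraries (up to 10 largest rises and 10 largest falls), the 8 highest in mean level, those beside listed regulators and those at the level limit; where only the partner was called, the 6 largest changes per comparison were named. RBM7, the single called gene of the surveillance list, was named after its values were seen. So were the listed genes with an unadjusted p under 0.05 in homozygous against wild type. The alternatives were other scalings, other filters, DESeq2 1.42.0, a test against a 1.5-fold change, a fit of only the 6 libraries compared, a replicate block, omission of each library and a level of 2 CPM. Membership by unscaled CPM, transcripts sharing no exon base with the partner and the group medians under all settings were added after seeing the data. Replicates of a genotype differed beyond sampling noise (chi-square per degree of freedom 2.55 to 30.6), with wild-type replicates 2 and 3 the closest, and none were merged.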

Additional observations from a re-analysis of the deposited data

How the results depend on the processing

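No named call changed direction under any of the 17 other settings applied to single genes. Of the 58 named calls of transcripts, partners and RBM7, 16 were kept in all of them and 32 with every library left out in turn. Size factors by relative log expression lost 1 call, upper quartile scaling 3, the filter of 1 CPM in 3 libraries 1, no filter 3, the fit of only 6 libraries 6, the replicate block 4, the test against a 1.5-fold change 42 and DESeq2 0. For transcripts in homozygous against wild type the count of 28 became 7 in the test against a 1.5-fold change, 43 with DESeq2 and 11 with only those sharing no exon base with the partner, and ran from 13 to 50 over the omissions of a library. For their partners 32 became 6 in the test against a 1.5-fold change and ran from 16 to 58 over omissions. In heterozygous against wild type the 5 transcripts became 1 in the 1.5-fold test and 2 with only those sharing no exon base, with 3 to 6 over omissions, and the 5 partners became 9 with no filter, 11 with the replicate block, 1 in the 1.5-fold test, 14 with 6 libraries and 14 with DESeq2, with 2 to 15 over omissions. In homozygous against heterozygous the 3 transcripts became 0 in the 1.5-fold test, 1 with 6 libraries and 13 with DESeq2, with 0 to 4 over omissions, and the 14 partners became 2, 8 and 25, with 5 to 13 over omissions. The cause of these differences was not tested, apart from the smaller number of libraries or transcripts that some settings use. The same replicate number did not pair libraries (correlations of deviations -0.19 to 0.25); with the replicate block 33 transcripts and 39 partners were called in homozygous against wild type, 5 and 11 in heterozygous against wild type and 4 (2 up and 2 down) and 14 between the mutants. The 4 named calls not made with the block were RBM7 (adjusted p = 0.0507) and IRX2-DT (adjusted p = 0.0547) in homozygous against wild type and GABPB1-AS1 (adjusted p = 0.0534) and ODC1-DT (adjusted p = 0.0538) between the mutants. The median log2 fold change of the transcripts in homozygous against wild type stayed between 0.14 and 0.24 under all settings. Most transcripts lie near 1 to 5 CPM, where counting error limits the size of change that can be called, and homozygous replicate 1 is the shallowest library.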
